A study of Brassica napus with 45 samples.

Results

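Stretches of genes on chromosomes A01 and C01 of Brassica napus (rapeseed) were followed through leaf transcriptomes of a BnNAC038 knockout, of lines that overexpress BnNAC038, and of their wild types. The members were chosen by the number that runs along the chromosome in each gene identifier (its digits without the final zeros, so that BnaA01G0222800ZS is 2228), from BnaA01G0202700ZS to BnaA01G0230200ZS on A01 and from BnaC01G0252800ZS to BnaC01G0295200ZS on C01. These limits had been set from the differences between the knockout and its wild type, so those differences are given below as a description, with no test. The stretches hold 701 of the 100919 genes listed, 276 on A01 and 425 on C01. The knockout experiment lists 480 of them, 207 on A01 and 273 on C01, because that part of the deposited values lists no gene at 0 in every library.

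Leaves were taken from seedlings grown in Hoagland's solution at 25 °C with 16 h of light a day. The knockout experiment held 9 libraries of the knockout line BnNAC038-KO-1 and 9 of its wild type, and the overexpression experiment held 9 libraries each of overexpression line 1, line 2 and another set of wild type. In each genotype 3 libraries came from untreated leaves, 3 from leaves after 3 h of 50 µM abscisic acid (ABA), the hormone of water stress, and 3 from leaves after 6 h of 20% polyethylene glycol (PEG), an osmotic agent that draws water away from roots. BnNAC038 encodes a NAC transcription factor, and the series addressed its place between drought response and growth. The labels name a single knockout line, do not give the promoter of the transgene, and for line 2 carry a genotype field with other NAC gene numbers, where the titles were followed. The knockout experiment's wild type is named K407 in its library names and the other WT, and whether both are the same stock is not stated. The labels call replicates biological without naming separate plants, and a p-value here covers no more than the spread of these libraries.

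Brassica napus is an allotetraploid that joined the A subgenome of Brassica rapa with the C subgenome of Brassica oleracea. A gene on an A chromosome therefore usually has a counterpart, its homoeologue, on a C chromosome, and A01 and C01 are such counterparts along much of their length. Homoeologous chromosomes can exchange pieces at meiosis, after which a plant may carry extra copies of one homoeologue in place of the other, and such exchanges are common among rapeseed stocks. DNA was not measured in the data used here, so gene copies are not known, and how the authors' counting shared out reads of near-identical homoeologues is not known. In whole leaves, fewer cells that express a gene and less RNA per cell cannot be told apart.

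No library was left out. Within a group, the lowest correlation between libraries was 0.948 among knockout experiment libraries and 0.955 among those of the overexpression experiment. A run of genes on another chromosome, A09, summed to 26.5 in untreated wild type replicate 3 of the knockout experiment, against 296 and 356 in replicates 1 and 2. In that library the A01 and C01 stretches summed to 2920 and 358, the C01 value being the lowest of the 9 in wild type. Among the overexpression libraries, 9 genes that were high in both lines and absent from untreated and PEG-treated wild type were present in ABA-treated wild type replicates 2 and 3 and absent from replicate 1. None of those 9 genes (0) lies in the stretches. The numbers of switched genes, and of genes called with a treatment in these wild types, are also given without such libraries.

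The C01 stretch was largely silent in the wild type of the knockout experiment and widely expressed in the knockout. A gene is called on in a genotype where its value was at least 1 in all 9 libraries, off where it was below 1 in all 9, and mixed otherwise. Of the 273 listed C01 genes, 83 were on, 55 mixed and 135 off in the knockout, against 15 on, 22 mixed and 236 off in wild type. On in the knockout and off in wild type were 53 genes, spread from 2547 to 2947, and 12 of them were listed at 0 in every wild type library. Without untreated wild type replicate 3 they were 54. The reverse, off in the knockout and on in wild type, was met by 0 of the C01 genes. Outside the stretches, 13 of 77577 listed genes were on in the knockout and off in wild type, and 9 the other way round. With 9 libraries on each side, the values of 97 of the 121 tested C01 genes lay above the whole wild type range, beside 0.34% of all tested genes. Of those 121 genes, 33 had a value of at least 1 in 3 libraries within wild type, so most were tested because the knockout expressed them, and their count supports nothing.

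**Figure D1:**
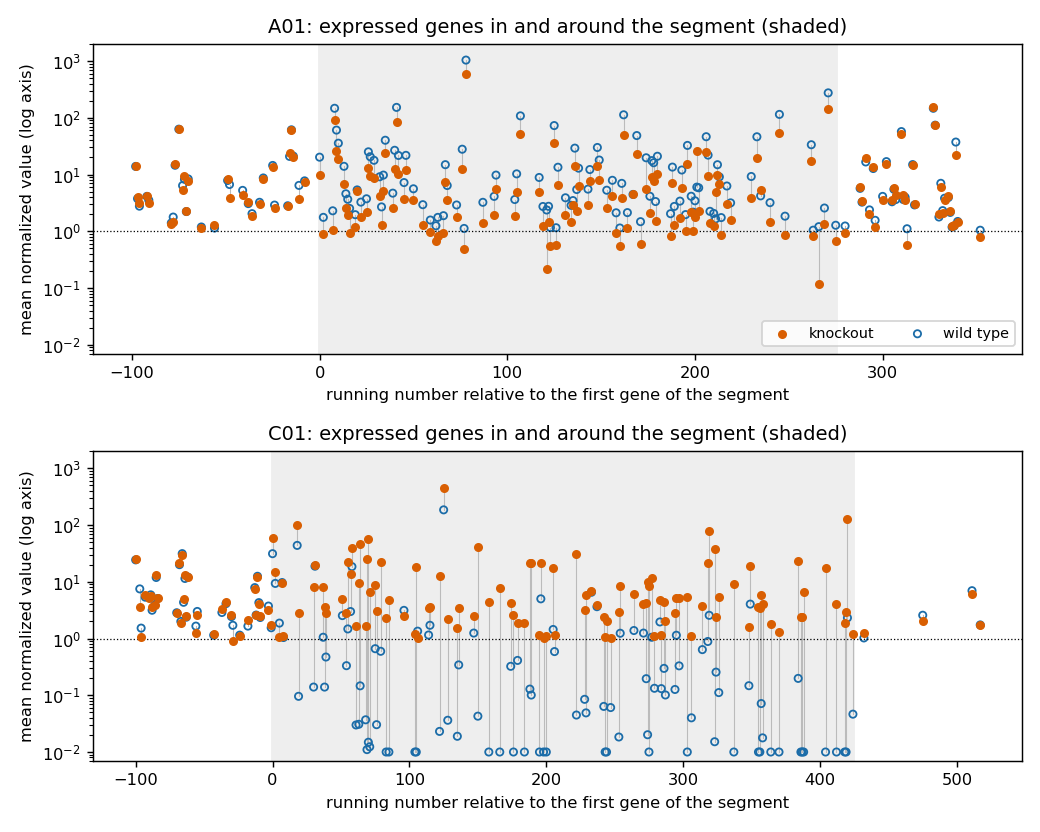
Mean normalized value over 9 libraries per genotype (log axis) against running number counted from the first gene of each stretch, for genes with a mean of at least 1 in either genotype; filled points are the knockout, open points wild type, shading marks the stretch, the dotted line a value of 1, and values under 0.01 are drawn at 0.01. Inside the A01 stretch the knockout points lie below those of wild type by a similar distance for most genes, and inside the C01 stretch many wild type points lie below 1 while the knockout points lie above it.

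The most abundant of the 53 switched genes was BnaC01G0259800ZS. Its lowest, median and highest values were 40.2, 61.3 and 64.9 over the 9 knockout libraries, against 0, 0 and 0.134 in wild type. BnaC01G0259200ZS had 12.1, 16.6 and 130.8 in the knockout, against 0, 0.104 and 0.436 in wild type. Both genes separated the genotypes without overlap in every condition. In the knockout BnaC01G0259800ZS varied little beside BnaC01G0259200ZS, at 60.7 ± 2.53 untreated, 62.5 ± 2.07 with ABA and 46.6 ± 6.52 with PEG (SD, n = 3 each). BnaC01G0259200ZS was 108 ± 22.6 untreated, 15.6 ± 0.842 with ABA and 14.5 ± 2.54 with PEG. In the overexpression experiment both genes stayed below 1 TPM (transcripts scaled to a common library total) in all 27 libraries.

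Silence in wild type was graded among the C01 genes. Over the 49 genes with a knockout mean of at least 5, the wild type mean was 2.07% of the knockout mean at the median, with quartiles of 0.183% and 21.6%. In 21 genes it was under 1%, in 12 between 1% and 10%, in 12 between 10% and 60%, and in 4 above 60%, which were 2530, 2535, 2559 and 2761 by running number. In untreated leaves the median was 1.68%, with ABA 2.55% and with PEG 2.76%. The genes that were on in both genotypes, 15 in all, carried 51.9% of the summed C01 value in the knockout and 89.7% in wild type, whereas the 53 switched genes carried 31.3% in the knockout and 1.27% in wild type. The highest of the 15 was BnaC01G0265300ZS, with 349, 459.6 and 558 (lowest, median, highest) in the knockout, against 150.1, 174 and 241 in wild type. BnaC01G0254600ZS followed in wild type, with 87.7, 95.2 and 126.9 in the knockout, against 30.9, 42.6 and 62.2. These 2 genes were higher in the knockout in every library but were far from silent in wild type.

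On A01 the same leaves showed a reduction that was near uniform for most well expressed genes, and no gene (0) was on in wild type and off in the knockout. Of 207 listed A01 genes, 67 were on, 43 mixed and 97 off in the knockout, against 91 on, 38 mixed and 78 off in wild type. On in both were 66, and 25 were on in wild type and mixed in the knockout. For the 59 genes with a wild type mean of at least 5, the ratio of the knockout mean to the wild type mean had a median of 0.493 and quartiles of 0.466 and 0.540. It lay between 0.4 and 0.6 for 49 of the 59, against 207 of 17035 genes outside the stretches, whose median was 0.986. By condition the A01 median was 0.485 untreated, 0.527 under ABA and 0.513 under PEG. The values of 28 of the 118 tested A01 genes lay below the whole wild type range in all 9 knockout libraries, beside 0.154% of all tested genes, and 0 lay above it. All 118 reached 1 in at least 3 libraries within wild type, and 105 did so within the knockout. The members were also chosen by this contrast, so the count supports nothing.

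**Figure D2:**
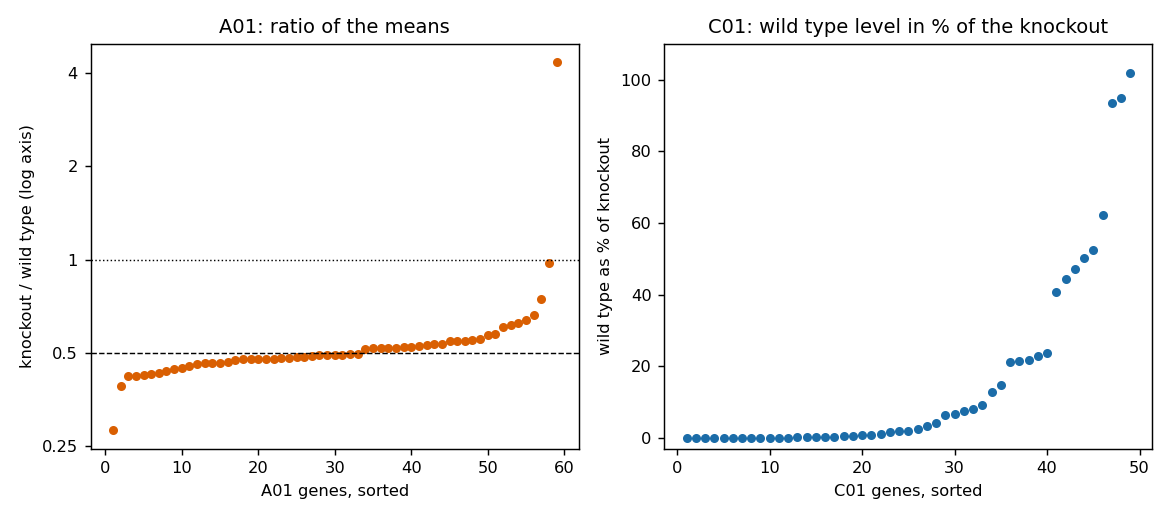
Left, ratio of the knockout mean to the wild type mean (log axis) for 59 A01 genes with a wild type mean of at least 5, each point a gene, sorted, with a dashed line at 0.5 and a dotted line at 1; right, wild type mean in percent of the knockout mean for 49 C01 genes with a knockout mean of at least 5. Most A01 genes form a plateau between 0.4 and 0.6 with 1 gene at 4.34, while the C01 genes run from 0% to 101.8%.

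The most abundant A01 gene, BnaA01G0210500ZS, had 457, 585 and 746 (lowest, median, highest) in the knockout, against 809, 927 and 1338 in wild type. BnaA01G0229800ZS had 119, 135 and 179 in the knockout, against 211, 272 and 363 in wild type. Neither gene's ranges overlapped between the genotypes. Of the 59 genes, 10 had ratios outside 0.4 to 0.6. The lowest ratio, 0.281, belonged to BnaA01G0220100ZS, with means of 5.54 in the knockout and 19.8 in wild type. BnaA01G0204700ZS did not share the reduction, with means of 5.21 in the knockout and 5.36 in wild type. BnaA01G0222800ZS went the other way, with a ratio of 4.34, and is described with the overexpression lines below. Below the level of 5 in wild type, BnaA01G0223800ZS also went the other way, with means of 4.90 in the knockout and 1.66 in wild type. BnaA01G0226200ZS averaged 5.27 in the knockout and 4.21 in wild type, and BnaA01G0219400ZS averaged 4.62 and 4.46. Others below that level were close to silent in the knockout. BnaA01G0214800ZS averaged 0.215 in the knockout and 2.37 in wild type, and BnaA01G0229300ZS averaged 0.119 and 1.21. BnaA01G0204700ZS and the genes below the level of 5 are named here because they stood apart once their values had been seen.

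Reduction on A01 and gain on C01 came to similar amounts. The A01 genes summed to 1459, 1682 and 1911 (lowest, median, highest of 9) in the knockout, against 2780, 3192 and 3500.1 in wild type. The C01 genes summed to 1499.6, 1743 and 1907 in the knockout, against 358, 383 and 433 in wild type. Together they reached 2959, 3483 and 3818 in the knockout and 3150.3, 3582 and 3908 in wild type, ranges that overlap widely. The C01 share of the joint sum was 49.1% to 51.7% across the 9 knockout libraries and 10.2% to 11.8% across the 9 wild type libraries. It was 51.6% ± 0.0783 in untreated knockout leaves, 50.5% ± 0.699 with ABA and 49.6% ± 0.451 with PEG (SD, n = 3 each), so the treatments moved it little beside the genotype. Single genes weigh on these sums, as BnaA01G0210500ZS made up 35.3% of the A01 sum in the knockout and 33.2% in wild type, and BnaC01G0265300ZS 26.3% and 48.1% of the C01 sum.

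**Figure D3:**
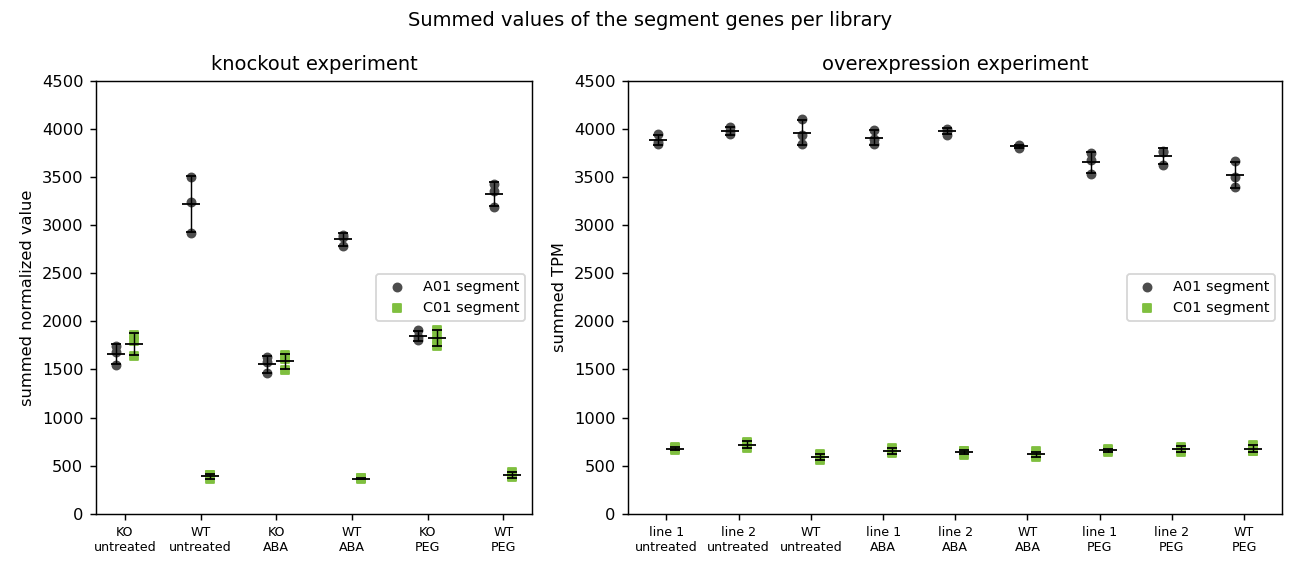
Summed value of the listed genes of the A01 stretch (dark circles) and the C01 stretch (green squares) in each library, with mean and SD of 3 libraries, for the knockout experiment (left, deposited normalized value) and the overexpression experiment (right, TPM). The knockout is the genotype in which both stretches reach about the same sum, from 1459 to 1911, while C01 stays far below A01 in every other genotype.

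At each A01 end the change fell among neighbouring expressed genes, some of them too low or too variable to place it exactly. The first expressed genes inside were BnaA01G0202700ZS, with a mean of 9.88 ± 2.03 in the knockout and 20.2 ± 6.05 in wild type (SD, n = 9 each), and 2029, with 0.904 ± 0.570 and 1.76 ± 1.46. The ranges of the genotypes overlapped in both genes. Just outside lay 2019, with 7.50 ± 2.12 in the knockout and 7.74 ± 2.12 in wild type, and 2016, with 3.68 ± 3.14 and 6.44 ± 6.77, a gap smaller than its spread. At the other end the last inside were 2298, already given as BnaA01G0229800ZS, and BnaA01G0230200ZS, with 0.671 ± 0.231 and 1.28 ± 0.547 and overlapping ranges. Beyond it, 2307 had 0.933 in the knockout and 1.24 in wild type and 2315 had 5.99 and 5.71. Summed over windows of 10 expressed genes, the ratio of knockout to wild type was 0.993 for 1989 to 2013. It was 0.897 for 2003 to 2034 and 0.559 for 2016 to 2041, which both span the start. At the other end it was 0.511 for the 10 from 2262 on, the last window wholly inside. It was 0.572 for 2290 to 2320, which spans the end, and 1.02 for 2307 to 2332. Inside the stretch, windows stayed between 0.456 and 0.567 except those with 2228, at 0.654 and 0.778, which hold BnaA01G0222800ZS.

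At the start of the C01 stretch, genes expressed in both genotypes lay among genes near silent in wild type, and the far end was sharp. Its first genes were BnaC01G0252800ZS, with 59.5 ± 6.34 in the knockout and 31.3 in wild type, where the SD was 6.405 (n = 9 each), and 2530, with 15.0 ± 3.55 and 9.36 ± 2.41, so both were well expressed in wild type. Just before it, 2525 had 3.16 in the knockout and 3.73 in wild type, and 2527 had 1.75 and 1.55. Further inside, 2533 had 1.05 in the knockout and 1.87 in wild type, while 2547 had 2.84 and 0.0958. Side by side, 2558 had 7.98 and 0.139 and 2559 had 19.8 and 18.8. Overlapping windows of 10 expressed genes gave ratios of 1.43 for 2510 to 2530, 1.86 for 2519 to 2547 and 2.70 for 2558 to 2586. Then came 6.41 for 2579 to 2597 and 116 for 2589 to 2607. Genes well expressed in both genotypes, such as BnaC01G0252800ZS, weigh on the first windows. Further in, the windows ranged from 2.61 for 2611 to 2653, which holds the abundant BnaC01G0265300ZS, to 189.7 for 2883 to 2916. Low genes expressed in both genotypes lay there too, named after their values were seen. In the knockout and wild type 2624 had 2.49 and 3.13, 2634 had 1.00 and 1.35, and 2765 had 3.86 and 3.64. At the far end 2948, BnaC01G0294800ZS, had 126.1 ± 22.8 in the knockout and 2.32 ± 0.875 in wild type, and BnaC01G0295200ZS had 1.21 and 0.0464. Outside, 2960 had 1.23 ± 0.840 in the knockout and 1.02 ± 0.386 in wild type, and 3003 had 2.00 and 2.57. Few genes beyond this end were expressed, and only 1 within 100 numbers had a wild type mean of at least 5, with a ratio of 0.862.

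In the overexpression experiment all genotypes resembled the wild type state rather than the knockout state. On the C01 stretch 26 of 425 genes were on in line 1, 25 in line 2 and 24 in wild type, and on A01 99, 100 and 106 of 276. Of the 53 genes switched in the knockout, 46 were off in all 27 libraries of the overexpression experiment and 4 were on in all, which were 2607, 2633, 2716 and 2884 by running number. Of the 49 C01 genes with a knockout mean of at least 5, 36 had a mean below 1 TPM in line 1, line 2 and wild type, while this held for 0 of 46 such A01 genes. The C01 share of the joint sum was 13.6% to 15.5% in line 1, 13.3% to 15.9% in line 2 and 11.9% to 16.4% in wild type, ranges that overlap. Values of the experiments were normalized separately, so only states and shares within a library are set side by side. States rest on a cutoff of 1, which need not mark the same level in both experiments.

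The wild types of the experiments did not express the same C01 genes. Of the 24 C01 genes on in all 27 overexpression libraries, 8 were on, 4 mixed and 11 off in the wild type of the knockout experiment and 1 was not listed there. Of the 15 that were on in that wild type, 5 were below 1 TPM in all 27 libraries of the overexpression experiment. BnaC01G0265300ZS, the highest C01 gene of the knockout experiment, averaged 0.0237 TPM in line 1, 0.0593 TPM in line 2 and 0.0784 TPM in wild type. Conversely BnaC01G0252900ZS averaged 207, 212 and 206 TPM there, with a mean value of 0.0955 in the knockout and 0.0826 in the knockout experiment's wild type. Whether the difference lies in the plants or in how reads were assigned in each experiment was not tested.

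ABA and PEG changed A01 genes in both genotypes. All 118 tested A01 genes had a value of at least 1 in 3 libraries within wild type, against 105 within the knockout. The rest were tested because wild type expressed them, so the knockout counts are not read against the shares of all genes. A gene is called where limma's Benjamini-Hochberg adjusted p over all tested genes was under 0.05. In the knockout, ABA raised 15 and lowered 32 of the 118 tested A01 genes, 47 in all, beside 42.8% of all genes called, 15.0% raised and 27.8% lowered. PEG raised 43 and lowered 28, 71 in all, beside 57.1% called, 35.3% raised and 21.8% lowered. In wild type ABA raised 16 and lowered 47, 63 in all, beside 49.4% called, 12.7% raised and 36.6% lowered. PEG raised 46 and lowered 35 there, 81 in all, beside 59.7% called, 33.5% raised and 26.2% lowered. Without untreated wild type replicate 3 the wild type counts were 58 with ABA and 72 with PEG. Median log2 changes in the knockout were -0.07 with ABA and 0.20 with PEG, against -0.12 and 0.13 for all tested genes, and in wild type -0.25 and 0.10, against -0.23 and 0.08. The responses ran alike in both genotypes. With ABA 38 A01 genes were called in both, all 38 in the same direction, 9 in the knockout alone and 25 in wild type alone. With PEG 64 were called in both, 63 in the same direction, 7 in the knockout alone and 17 in wild type alone. Across the 118 genes, which share their libraries and are not independent replicates, Pearson's r between the changes in the knockout and in wild type was 0.851 with ABA and 0.937 with PEG. A call in one genotype alone does not show a difference, and the difference itself, which involves the contrast that chose the members, was called for 2 A01 genes with ABA, beside 1.79% of all genes, and for 1 with PEG, beside 0.398%. They were BnaA01G0204300ZS with ABA and BnaA01G0229300ZS with both, named after their values were seen. The call of BnaA01G0204300ZS was lost in 11 of 12 fits that each left out 1 library of its 4 groups, all but the one without ABA-treated knockout replicate 2. On C01 the difference was called for 19 of 121 tested genes with ABA, 7 higher and 12 lower, beside the same 1.79%. With PEG it was called for 22, 12 higher and 10 lower, beside 0.398%. Most of these C01 genes were silent in wild type, so the counts support nothing. BnaA01G0229300ZS fell in wild type to 0.107, 0.0497 and 0 with ABA, against 3.03, 3.91 and 3.76 untreated, while the knockout was below 1 in all libraries. It was tested only because untreated wild type expressed it, so its call supports nothing.

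The strongest A01 responder was BnaA01G0226000ZS. In the knockout it had 38.4, 26.1 and 37.0 with ABA and 40.7, 25.9 and 8.82 with PEG, against 0.352, 0.699 and 0.259 untreated. The log2 change was 4.59 with ABA (SE 0.39, limma adjusted p = 3.91e-07) and 3.97 with PEG (SE 0.39, limma adjusted p = 9.91e-07). In wild type it had 62.0, 71.1 and 62.3 with ABA and 79.1, 83.2 and 53.2 with PEG, against 1.86, 2.98 and 1.03 untreated, with log2 changes of 4.54 and 4.65 (SE 0.39 each). Treated and untreated libraries did not overlap in either genotype, and all knockout values were below the wild type values of the same condition. Near it, BnaA01G0226200ZS had 9.24, 5.199 and 10.5 with ABA in the knockout, against 0.646, 0.851 and 0.825 untreated (log2 change 2.35, SE 0.28, limma adjusted p = 1.1e-05). BnaA01G0220100ZS, the gene with the lowest ratio, still rose with PEG in wild type, to 34.3, 41.3 and 43.2, against 5.15, 5.85 and 3.35 untreated (log2 change 2.83, SE 0.18, limma adjusted p = 1.28e-08). With ABA in wild type BnaA01G0218900ZS rose to 137, 102 and 189, against 36.8, 33.6 and 57.4 untreated (log2 change 1.72, SE 0.33, limma adjusted p = 0.000552).

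Among the A01 genes that fell, BnaA01G0206200ZS and BnaA01G0224000ZS led in both genotypes. BnaA01G0206200ZS had 6.08, 6.99 and 6.18 with PEG in the knockout, against 65.4, 48.8 and 48.4 untreated (log2 change -2.88, SE 0.25, limma adjusted p = 3.2e-07). In wild type it had 13.5, 10.7 and 7.62 with PEG, against 106, 109 and 56.7 untreated (log2 change -2.95, SE 0.25, limma adjusted p = 1.62e-07). BnaA01G0224000ZS had 0.944, 0.604 and 2.84 with ABA in the knockout, against 17.2, 25.8 and 11.4 untreated (log2 change -2.99, SE 0.34, limma adjusted p = 5.37e-06). In wild type it had 3.01, 1.22 and 1.32 with ABA, against 30.7, 20.4 and 16.6 untreated (log2 change -3.06, SE 0.34, limma adjusted p = 4.01e-06). The treated libraries of both genes lay below all untreated libraries. A single A01 gene was called in opposite directions with PEG, though the difference between its changes in the genotypes was not called. BnaA01G0204700ZS, which also lacked the A01 reduction, had a PEG mean of 7.90 ± 0.905 in the knockout, against 4.96 ± 0.186 untreated, and 5.99 ± 1.96 in wild type, against 7.88 ± 0.949 untreated (SD, n = 3 each).

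**Figure D4:**
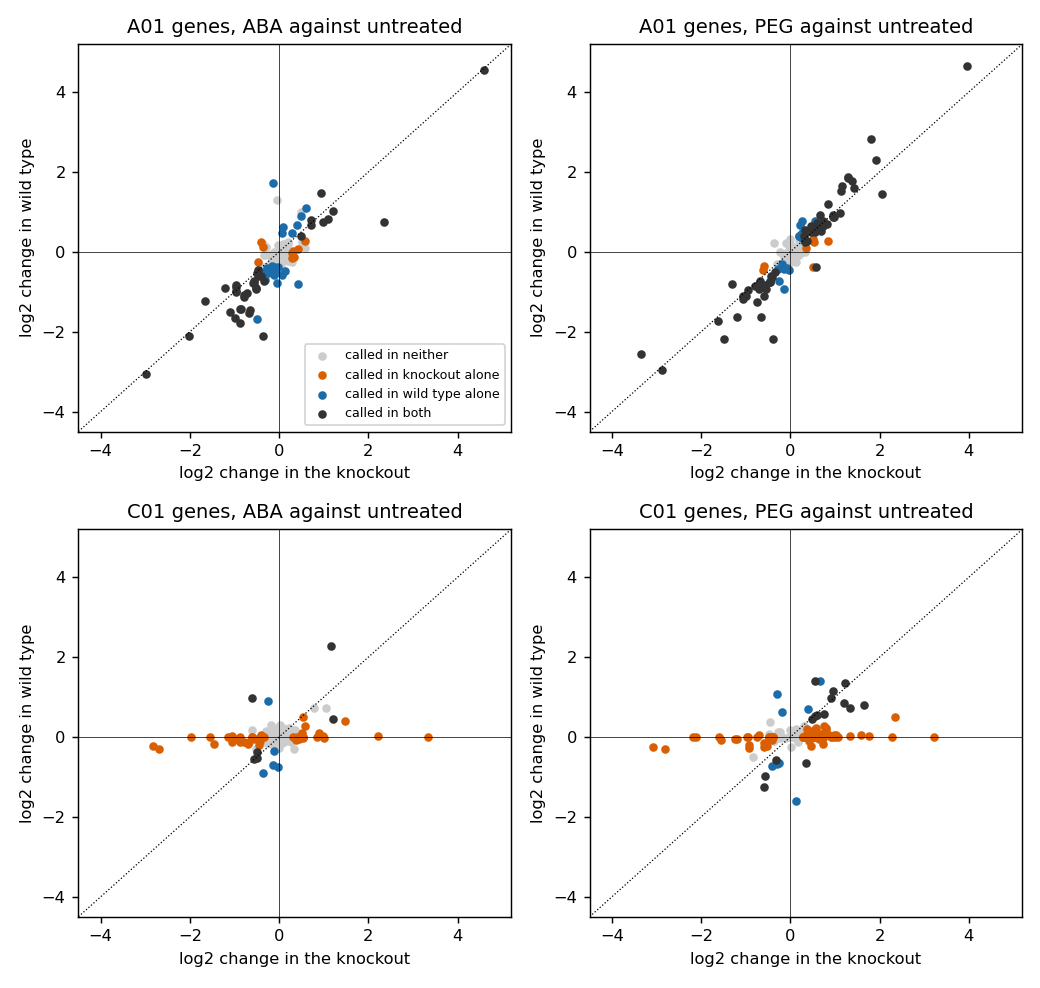
log2 change with ABA (left) and PEG (right) against untreated leaves, in the knockout (horizontal) and in wild type (vertical), for the 118 tested A01 genes (top) and the 121 tested C01 genes (bottom), each point a gene coloured by the genotypes in which it was called. A01 genes follow the dotted line of equal change, whereas many C01 genes spread along the horizontal axis at a wild type change near 0.

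Genes of the C01 stretch responded to both treatments in the knockout. ABA raised 20 and lowered 26 of the 121 tested C01 genes there, 46 called, and PEG raised 59 and lowered 27, 86 called, beside the same 42.8% and 57.1% of all genes. All 121 passed the filter on low values within the knockout and 33 within wild type, so these counts are not read against the shares of all genes. Of the 53 genes that were off in wild type, ABA raised 8 and lowered 10, with a median log2 change of 0.00, and PEG raised 29 and lowered 11, with a median of 0.29. BnaC01G0285100ZS had 52.2, 39.8 and 55.9 with ABA and 69.9, 51.0 and 36.4 with PEG in the knockout, against 9.46, 10.5 and 9.03 untreated. Its log2 change was 2.23 with ABA (SE 0.17, limma adjusted p = 1.82e-07) and 2.28 with PEG (SE 0.17, limma adjusted p = 1.05e-07), and its highest value in the 9 wild type libraries was 0.0704. BnaC01G0269400ZS had 15.4, 5.56 and 12.8 with ABA and 20.1, 13.4 and 2.83 with PEG, against 0.235, 0.160 and 0 untreated, and was listed at 0 in all wild type libraries. It was thus visible in the knockout after treatment and near 0 before it. The gene passed the filter on low values through treated knockout libraries alone, so its calls are a description.

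BnaC01G0259200ZS and BnaC01G0288500ZS fell most on C01. BnaC01G0259200ZS had 16.6, 15.3 and 15.0 with ABA and 14.2, 17.2 and 12.1 with PEG in the knockout, against 130.8, 107 and 85.6 untreated. The log2 change was -2.69 with ABA (SE 0.14, limma adjusted p = 6.1e-09) and -2.80 with PEG (SE 0.14, limma adjusted p = 3.35e-09). BnaC01G0288500ZS had 1.04, 0.652 and 2.40 with ABA and 1.23, 0.524 and 0.993 with PEG, against 16.0, 20.9 and 9.94 untreated (log2 changes -2.83 and -3.08, SE 0.25 each, limma adjusted p = 6.74e-07 and 2.09e-07). Both lay below their untreated range in every treated library, and in wild type neither reached 0.5.

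In the wild type of the knockout experiment few C01 genes could show a response. ABA raised 4 and lowered 7 of the same 121 genes, and PEG raised 15 and lowered 8, with 33 of the 121 expressed there by the filter, beside 49.4% of all genes called with ABA and 59.7% with PEG. Without untreated replicate 3 the counts were 12 with ABA in place of 11 and 21 with PEG in place of 23. Of the 40 C01 genes called with ABA in the knockout alone, 35 were off in wild type, and of the 71 called with PEG in the knockout alone, 64 were off. Where both genotypes were called, 5 of 6 genes moved the same way with ABA and 14 of 15 with PEG. The exceptions, named after their values were seen, were BnaC01G0279900ZS with ABA and BnaC01G0257900ZS with PEG. BnaC01G0257900ZS had 6.64, 5.88 and 5.76 with PEG in the knockout, against 4.84, 4.16 and 4.58 untreated, and 1.83, 1.34 and 1.76 with PEG in wild type, against 3.92, 3.23 and 2.42 untreated. BnaC01G0279900ZS had 2.15, 2.51 and 1.84 with ABA in the knockout, against 4.34, 3.34 and 3.71 untreated, and 1.378, 1.30 and 1.24 with ABA in wild type, against 0.239, 0.0930 and 0.221 untreated. BnaC01G0255900ZS, with means of 19.8 in the knockout and 18.8 in wild type, had 8.46, 5.49 and 6.47 with PEG in wild type, against 21.5, 17.6 and 29.8 untreated (log2 change -1.60, SE 0.27, limma adjusted p = 0.000112). BnaC01G0276100ZS rose with PEG in wild type to 10.8, 11.7 and 9.27, against 4.45, 4.04 and 2.37 untreated (log2 change 1.35, SE 0.20, limma adjusted p = 4.55e-05).

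In the wild type of the overexpression experiment ABA raised 20 and lowered 27 of 141 tested A01 genes and raised 10 and lowered 4 of 49 tested C01 genes, beside 34.7% of all genes called, 16.4% raised and 18.3% lowered. PEG raised 56 and lowered 39 A01 genes and raised 15 and lowered 7 C01 genes, beside 62.1% called, 39.8% raised and 22.4% lowered. With ABA-treated replicate 1 alone, an alternative chosen after seeing the data, 32 A01 and 8 C01 genes were called with ABA in place of 47 and 14, where the lone library is assumed to vary like the other groups. Without ABA-treated replicate 1 the counts were 41 and 10, and without untreated replicate 1 the C01 count was 9. BnaA01G0226000ZS led again, with 63.9, 58.1 and 45.5 TPM with ABA, against 0.401, 0.537 and 0.317 TPM untreated (log2 change 5.31, SE 0.22, limma adjusted p = 2.9e-14). BnaA01G0203600ZS had 188, 179 and 125 TPM with ABA and 224, 207 and 177 TPM with PEG, against 23.9, 14.1 and 17.0 TPM untreated (log2 changes 3.11 and 3.42, SE 0.20 each, limma adjusted p = 5.74e-11 and 6.75e-12). BnaA01G0206200ZS fell with PEG to 45.4, 52.4 and 34.9 TPM, against 301, 256 and 379.5 TPM untreated (log2 change -2.79, SE 0.25, limma adjusted p = 5.18e-09). The groups of these A01 genes did not overlap.

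On C01 the largest rise in that wild type was that of BnaC01G0265500ZS with PEG, to 50.4, 29.7 and 83.1 TPM, against 2.09, 1.54 and 2.53 TPM untreated (log2 change 4.08, SE 0.26, limma adjusted p = 2.46e-11). BnaC01G0288400ZS rose with PEG to 14.5, 13.4 and 16.4 TPM, against 3.56, 4.58 and 4.61 TPM untreated (log2 change 1.59, SE 0.15, limma adjusted p = 1.25e-08). BnaC01G0252900ZS, the most abundant C01 gene there, fell with PEG to 148, 185 and 93.2 TPM, against 254, 269 and 225 TPM untreated (log2 change -0.86, SE 0.20, limma adjusted p = 0.000952). BnaC01G0255900ZS rose with ABA to 12.4, 13.6 and 11.1 TPM, against 5.40, 2.83 and 3.56 TPM untreated (log2 change 1.47, SE 0.18, limma adjusted p = 1.33e-06).

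Between the overexpression lines and their wild type, genes of the stretches were called at shares near those of all genes. The counts therefore show nothing particular to the stretches. Of 190 tested genes, 12 were called in untreated line 1, 8 higher and 4 lower, beside 4.6% of all genes, 2.31% higher and 2.28% lower. In untreated line 2 there were 17, 12 higher and 5 lower, beside 8.06%, 5.35% higher and 2.7% lower. With ABA 3 were called in line 1, beside 2.37%, and 5 in line 2, beside 2.85%, and with PEG 21 in line 1, beside 13.4%, and 20 in line 2, beside 10.6%. These counts hung on single libraries. In line 1 the untreated count was 7 without line 1 replicate 1 and the ABA count 1 without line 1 replicate 1 and 2 without wild type replicate 1. The PEG count of line 1 was 10 and 32 without line 1 replicates 2 and 3, and 9 and 36 without wild type replicates 2 and 3. In line 2 the untreated count was 9 without line 2 replicate 2 and 11 without wild type replicate 3, the ABA count 3 without any 1 library other than wild type replicate 2, and the PEG count 32 without wild type replicate 3. With ABA, BnaA01G0222800ZS and BnaA01G0229700ZS were called in each line. The call of BnaA01G0229700ZS with ABA was lost in line 1 without line 1 replicate 1 or wild type replicate 1 (limma adjusted p = 0.0592 and 0.0719), and in line 2 without line 2 replicate 3 or wild type replicate 1 (limma adjusted p = 0.105 and 0.126). The lines share their wild type libraries, so their values stand side by side and their overlap is not counted.

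BnaA01G0222800ZS was the member with the widest gap between the lines and wild type. In untreated leaves it had 0.418, 0 and 0 TPM in line 1 and 0.425, 0 and 0 TPM in line 2, against 23.7, 8.26 and 15.7 TPM in wild type. The log2 difference was -3.80 in each line (SE 0.33, limma adjusted p = 6.06e-08 in line 1 and 5.78e-08 in line 2). With ABA it had 0, 0 and 0.504 TPM in line 1 and 0.360, 0.672 and 0 TPM in line 2, against 7.01, 7.79 and 5.58 TPM in wild type. With PEG it was listed at 0 in line 1 and had 0, 0.481 and 0 TPM in line 2, against 9.75, 18.1 and 5.29 TPM in wild type. It was below 1 TPM in all 18 line libraries and at 5.29 TPM or more in all 9 wild type libraries. The gene thus passed the filter on low values through wild type alone, so its calls in the lines are given as a description. In the knockout experiment it was higher in the knockout in each condition, at 13.97, 18.1 and 17.8 in the knockout against 3.18, 1.84 and 2.20 in wild type when untreated, at 11.3, 22.0 and 21.9 against 3.73, 4.73 and 4.08 with ABA, and at 45.8, 51.9 and 31.5 against 10.96, 13.5 and 9.80 with PEG. Those values are a description, and the genotypes did not overlap in any condition. PEG raised it in both genotypes, with log2 changes of 1.30 in the knockout (SE 0.24, limma adjusted p = 0.000282) and 1.88 in wild type (SE 0.24, limma adjusted p = 8.68e-06).

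**Figure D5:**
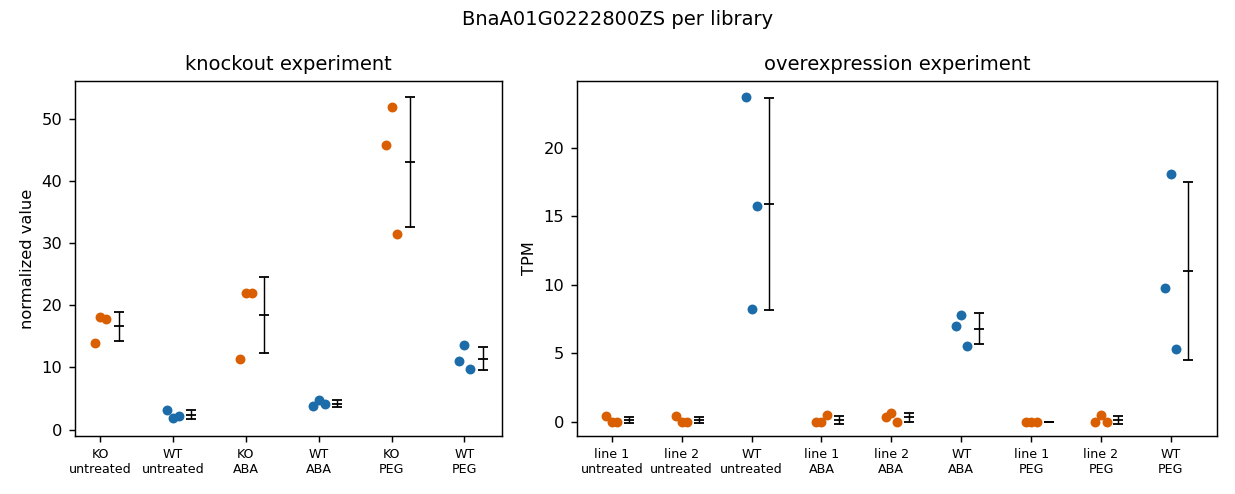
Values of BnaA01G0222800ZS in every library, with mean and SD of 3 beside the points, in the knockout experiment (left, normalized value, knockout left of wild type in each condition) and in the overexpression experiment (right, TPM, lines left of wild type). Line libraries lie at 0.672 TPM or less and their wild type at 5.29 TPM or more, while the knockout lies above its wild type in each condition.

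A C01 gene went the other way in the lines. BnaC01G0282800ZS, which is not listed in the knockout experiment, had 7.08, 9.21 and 7.03 TPM in untreated line 2 and 5.07, 5.28 and 4.27 TPM in untreated line 1, against 0.432, 0.471 and 0.130 TPM in wild type (log2 differences 2.71 in line 2 and 2.13 in line 1, SE 0.18 each, limma adjusted p = 8.36e-10 and 3.79e-08). With PEG it had 4.86, 6.50 and 7.67 TPM in line 1 and 8.61, 8.29 and 8.68 TPM in line 2, against 0.823, 0.666 and 1.24 TPM in wild type. BnaC01G0291100ZS was higher with PEG, at 8.79, 11.3 and 13.0 TPM in line 1 and 10.6, 8.38 and 12.1 TPM in line 2, against 3.01, 2.88 and 3.802 TPM in wild type (log2 differences 1.498 and 1.42, SE 0.25 each, limma adjusted p = 0.000266 and 0.000481). On A01, BnaA01G0229700ZS had 13.1, 15.9 and 12.7 TPM in untreated line 1 and 10.8, 12.1 and 11.01 TPM in untreated line 2, against 4.61, 3.55 and 6.06 TPM in wild type (log2 differences 1.39 and 1.12, SE 0.18 each, limma adjusted p = 1.19e-05 and 0.000163). This gene is listed in the knockout experiment at 0 in all libraries except an ABA-treated knockout library at 0.0776. BnaA01G0203600ZS was also higher in untreated leaves, at 36.3, 44.8 and 48.5 TPM in line 1 and 60.1, 101 and 59.0 TPM in line 2, against 23.9, 14.1 and 17.0 TPM in wild type (log2 differences 1.22 and 1.93, SE 0.20 each, limma adjusted p = 0.000398 and 8.52e-07). In each of these 4 genes no line library overlapped the wild type range of the condition given.

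For the members given here the response itself was called as different between a line and wild type, and each was named after its values were seen. With ABA it was called for 1 gene in each line, BnaC01G0282800ZS, beside 0.0211% of all genes in line 1 and 0.0316% in line 2. The difference was lost in line 1 without untreated line 1 replicate 1 or 2, ABA-treated line 1 replicate 2 or 3, or untreated wild type replicate 3 (limma adjusted p from 0.0584 to 0.0693), and in line 2 without untreated replicate 2 or ABA-treated replicate 3 of that line (limma adjusted p = 0.0578 and 0.0549). With PEG it was called for 2 genes in line 1, beside 1.13% of all genes, and for 1 in line 2, beside 1.54%. BnaA01G0211400ZS had 17.3, 20.2 and 15.3 TPM with PEG in line 1, against 8.14, 9.34 and 7.98 TPM untreated. In line 2 it had 17.3, 14.3 and 17.8 TPM with PEG, against 8.65, 7.68 and 7.499 TPM untreated, and in wild type 8.78, 10.2 and 8.97 TPM, against 7.97, 7.104 and 7.13 TPM. PEG thus left a wider gap in each line than in wild type, but the call was lost in 7 of 12 fits that each left out 1 library, in line 1 and again in line 2. For line 1 these were the fits without untreated line 1 replicate 1 or 3, PEG-treated line 1 replicate 2, any untreated wild type library, or PEG-treated wild type replicate 1. For line 2 they were those without untreated line 2 replicate 2 or 3, PEG-treated line 2 replicate 1 or 3, untreated wild type replicate 1 or 2, or PEG-treated wild type replicate 1. BnaA01G0209000ZS had 0.162, 0.118 and 0.560 TPM with PEG in line 1, against 2.01, 1.85 and 1.43 TPM untreated, and in wild type 1.300, 0.863 and 1.12 TPM, against 1.76, 1.66 and 1.81 TPM. Its call was lost in 10 of 12 such fits, all but those without PEG-treated replicate 3 of line 1 or of wild type.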

How the data were processed

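Messenger RNA from leaves was sequenced in 45 libraries (15 groups of 3); per the labels' protocols, RNA was extracted with TRIzol and libraries were made with NEBNext Ultra II. The submitters' processing notes name kallisto 0.51.1, sleuth 0.30.1, HISAT2 and DESeq2 1.38.3 without saying what each did, and the genome build is not given in the sources used here. The authors deposited the overexpression experiment as TPM for 107233 transcripts, summed here to 100919 genes, and the knockout experiment as a normalized expression signal for 78057 genes, without saying if that is TPM or FPKM. No read numbers are given, so depth is unknown, and tests stay within an experiment. The identifiers matched 0 of 123214 genes of the RefSeq table at hand (Da-Ae assembly), so gene names, gene lists, the BnNAC038 gene itself and sequences were not used here, and running numbers are not base coordinates.

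Tests used limma 3.58.1 in R 4.3.3 on log2(value + 1), for genes at 1 or more in at least 3 libraries of the experiment, 42926 and 47474 genes, with a model over all groups, empirical Bayes moderation with a mean trend and Benjamini-Hochberg adjustment over all tested genes. Log2 changes on this scale understate those of low genes. The plan foresaw a count model had read counts been given. The filter kept 118 A01 and 121 C01 genes in the knockout experiment and 141 and 49 in the overexpression experiment. The procedure was tested on simulated data. Genes were named by rule: the 2 highest switched and the 2 highest constantly expressed genes, the 2 expressed genes on each side of each end, and, per comparison and direction, the 2 largest called changes with a mean of at least 5 and no overlap between replicates, and up to 2 genes that went against their stretch. Members and lists were chosen with earlier results of these data known. Alternatives were a pseudocount of 0.1, no filter, quantile normalization, a replicate block, leaving out each library, and states at 0.5 and 2. Figures were drawn with matplotlib 3.10.9.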

Additional observations from a re-analysis of the deposited data

Results flagged for a closer look

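The treatment response differed between the knockout and wild type for 19 of 121 tested C01 genes with ABA, beside 1.79% of all genes. With PEG it differed for 22, beside 0.398%. These counts are a description, because the members were chosen by their knockout levels and 33 of the 121 passed the filter within wild type. Values follow for 4 of these C01 genes, the largest responders named in the knockout. The difference of log2 changes, knockout minus wild type, was 3.34 with ABA and 3.22 with PEG for BnaC01G0269400ZS and 2.21 with ABA and 2.28 with PEG for BnaC01G0285100ZS. It was -2.60 and -2.83 for BnaC01G0288500ZS and -2.40 and -2.50 for BnaC01G0259200ZS. All 4 genes were below 1 in all 9 wild type libraries, where little change could be measured. BnaC01G0269400ZS was also below 1 in the untreated knockout and was tested only through treated knockout libraries. On A01 the difference was 0.90 with ABA for BnaA01G0204300ZS, and 1.75 with ABA and 1.79 with PEG for BnaA01G0229300ZS. The PEG difference of BnaA01G0229300ZS was not called with a pseudocount of 0.1. The ABA difference of BnaA01G0204300ZS was not called with that pseudocount, with no filter or with quantile normalization (limma adjusted p = 0.385, 0.0886 and 0.0966). BnaA01G0229300ZS was tested only because untreated wild type expressed it, so its differences are a description. In the overexpression experiment the ABA response of BnaC01G0282800ZS, line minus wild type, differed by -1.61 in line 1 (SE 0.26, limma adjusted p = 0.0148) and -1.63 in line 2 (SE 0.26, limma adjusted p = 0.0115). Its ABA values were 2.83, 2.33 and 2.02 TPM in line 1 and 4.57, 4.25 and 3.18 TPM in line 2, against 0.715, 1.91 and 1.61 TPM in wild type. The lowest wild type value is that of replicate 1, the ABA-treated library that stands apart from replicates 2 and 3 in other genes. Without it the difference was -1.84 in line 1 and -1.86 in line 2 (limma adjusted p = 0.000171 and 0.000149). With it alone the difference was -1.15 and -1.17 and was not called (limma adjusted p = 0.310 and 0.241), the lone library being assumed to vary like the other groups. The PEG response of BnaA01G0211400ZS differed by 0.67 in line 1 and 0.67 in line 2 (SE 0.15 each, limma adjusted p = 0.0339 and 0.0292). Leaving out 1 library gave an adjusted p of 0.0144 to 0.115 in line 1 and 0.0197 to 0.0877 in line 2. That of BnaA01G0209000ZS differed by -0.73 in line 1 (SE 0.18, limma adjusted p = 0.0499, range 0.0106 to 0.156). It was not called with no filter or with quantile normalization (limma adjusted p = 0.0633 and 0.0642).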

How the results depend on the processing

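Counts of called genes, genes named and segment medians were recomputed under each alternative, and no direction reversed among 683 settings of named genes, of which 46 lost the call. No filter, a setting in which more genes were tested, gave 133 C01 genes called with PEG in the knockout in place of 86. In the wild type of the overexpression experiment it gave 35 with PEG in place of 22. A pseudocount of 0.1 gave 23 C01 genes for ABA in wild type of the knockout experiment in place of 11. Line 2 with ABA had 2 genes under quantile normalization and, with ABA-treated wild type replicate 1 alone, 3, in place of 5; that setting gave 8 C01 genes for ABA in place of 14. The cause of these moves was not tested. Median log2 differences, knockout minus wild type (untreated, ABA, PEG), were -0.80, -0.61 and -0.75 on A01 and 1.56, 1.51 and 1.62 on C01. With a pseudocount of 0.1 they were -1.03, -0.84 and -0.95 on A01 and 3.48, 3.54 and 3.67 on C01, and with no filter -0.44, -0.23 and -0.46 on A01 and 0.27, 0.25 and 0.43 on C01. Quantile normalization gave -0.77 on untreated A01 and 1.54 on C01 with PEG. With on set at 2 or more, 1 A01 gene in place of 0 was on in wild type and off in the knockout. Leaving out each library in turn gave 9 to 14 C01 genes for ABA in the overexpression experiment's wild type, 7 to 11, 1 to 3 and 9 to 36 genes in line 1 (untreated, ABA, PEG) and 9 to 21, 3 to 4 and 15 to 32 in line 2. Medians ranged from -0.84 to -0.79 on untreated A01, and on C01 from 1.54 to 1.69 untreated and from 1.61 to 1.71 with PEG. Deviations of same-numbered replicates correlated from -0.397 to 0.246 in the knockout experiment and from -0.420 to 0.206 in the overexpression experiment. These values do not settle whether a number marks a shared batch. A replicate block moved no count by over 1.5 times (46 A01 genes with ABA and 86 C01 genes with PEG in the knockout) and ended the call of BnaA01G0229000ZS in untreated line 2 (limma adjusted p = 0.0671) and the response differences of BnaA01G0204300ZS and BnaA01G0209000ZS (limma adjusted p = 0.0700 and 0.0775). Depth is unknown, so values near 0 cannot be told from values missed.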
